A study of Rattus norvegicus with 2 samples.

Results

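Genes of the proteasome were examined in control and sorted rat myeloma cells. They were chosen by name, as every probe set whose gene symbol in the array's annotation begins with PSMA, PSMB, PSMC, PSMD, PSME, PSMF or PSMG and a number. This gave 102 of 54613 probe sets, with 52 gene symbols of 21357. Of these, 86 probe sets read 44 genes of subunits, activators, an inhibitor and assembly factors, and 16 read 8 symbols that only share the prefix. Total RNA of 1 sample of each condition was hybridised to 1 Affymetrix array each, whose probes are named by human genes. The control cells were the rat myeloma cell line YB2/0 without a transferred library. The sorted cells are YB2/0 cells into which a cDNA library of human umbilical vein endothelial cells had been carried by retrovirus, followed by selection of cells that bound IgG from patients with Takayasu arteritis. Their label says only that they were sorted, and names neither the serum nor the clone. Both samples were grown in ordinary culture with no treatment beyond the library transfer and rounds of selection, which only the sorted cells underwent. With 1 array per condition, neither a replicate error nor a test between conditions was available, and condition, clone and array run cannot be told apart. A lower share of cells with a transcript and less of it per cell cannot be told apart either.

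The proteasome is the protease that degrades proteins marked with ubiquitin chains. Its barrel-shaped core particle, called 20S, has outer rings of alpha subunits, which gate the entry, and inner rings of beta subunits, some of which cut peptide bonds. The regulatory particle, called 19S, recognises ubiquitin, removes it and unfolds the substrate with a ring of ATPases. Plasma cells and myelomas make large amounts of secretory protein and are known for their sensitivity to proteasome inhibitors.

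Signals are MAS5 intensities on a linear scale, scaled by the authors for each array as a whole. Each comes with a call, which is Present, Marginal or Absent. Present probe sets had detection p-values of up to 0.0490 and Absent ones of 0.0652 or more. On the whole array 8.93% of probe sets were Present in control cells, 8.24% in sorted cells and 4.68% in both. Transcripts of rat cells are read only as far as they bind human probes, so an Absent call does not show that a transcript was missing. Human cDNA of the library can bind the same probes in sorted cells. Which species a signal came from was not tested. The 18 probe sets of the hybridisation spikes, added in fixed amounts, had log2 ratios of sorted over control signal from -0.58 to 0.57. PROCR, the endothelial receptor for protein C, had signals of 186 (Absent) in control and 528933 (Present) in sorted cells. SCARB1, a scavenger receptor for lipoproteins, had 99.9 (Absent) and 61076 (Present). In the paper, inserts of PROCR and of SCARB1 were found in different clones. The label does not say whether the sorted sample was a single clone or a mixture. Of 13 plasma cell and B cell marker genes, 4 were Present in at least 1 sample, of which SDC1, the plasma cell marker syndecan, was Present in both, with signals of 3390 and 4206. CD27, a receptor of memory B cells and plasma cells, was lower in sorted cells, from 1353 (Present) to 253 (Absent, log2 ratio -2.42). PRDM1, a transcription factor of plasma cells, had 1850 (Present) and 1113 (Marginal) at 217192_s_at and 483 (Present) and 528 (Absent) at 228964_at. MS4A1, a B cell surface protein, had 474 (Present) and 561 (Absent). The part of these markers in the results on proteasome genes was not tested. JCHAIN, XBP1, CD38 and CD79A, which also mark these cells, were Present in neither. The summed signal of the 27 probe sets of these genes was 21758 in control and 19243 in sorted cells. Of 11 endothelial cell marker genes, 1 was Present, ERG, in sorted cells only, and VWF, PECAM1 and CDH5 were Present in neither. Their 24 probe sets had a summed signal of 11282 in control and 8131 in sorted cells.

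Genes of the 20S core and the 19S particle were detected in both samples. Of the 102 probe sets, 30 were Present in control cells, 32 in sorted cells and 24 in both. These 24 read 20 genes, all of them subunits of the 20S core or the 19S particle. At 2-fold or more, a probe set was counted as higher if it was Present in sorted cells and as lower if it was Present in control cells. By this rule 4 of 102 were higher in sorted cells, against 1.61% of all probe sets, and 0 were lower, against 1.77%. The rule needs a Present call, and proteasome probe sets were Present more often than the 8.24% of all in sorted cells. Among probe sets Present in sorted cells, 4 of 32 were higher, beside 879 of 4502 on the array. Among those Present in control cells, 0 of 30 were lower, beside 965 of 4875. The 4 higher ones read PSMG3, PSMC6, PSME4 and PSMD6. Just under the limit lay PSMC3 with a log2 ratio of 0.91 and 201316_at of PSMA2 with 0.90. Among the 24 probe sets Present in both samples, 1 differed by 2-fold or more, beside 10.5% of all 2556 such probe sets.

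**Figure D1:**
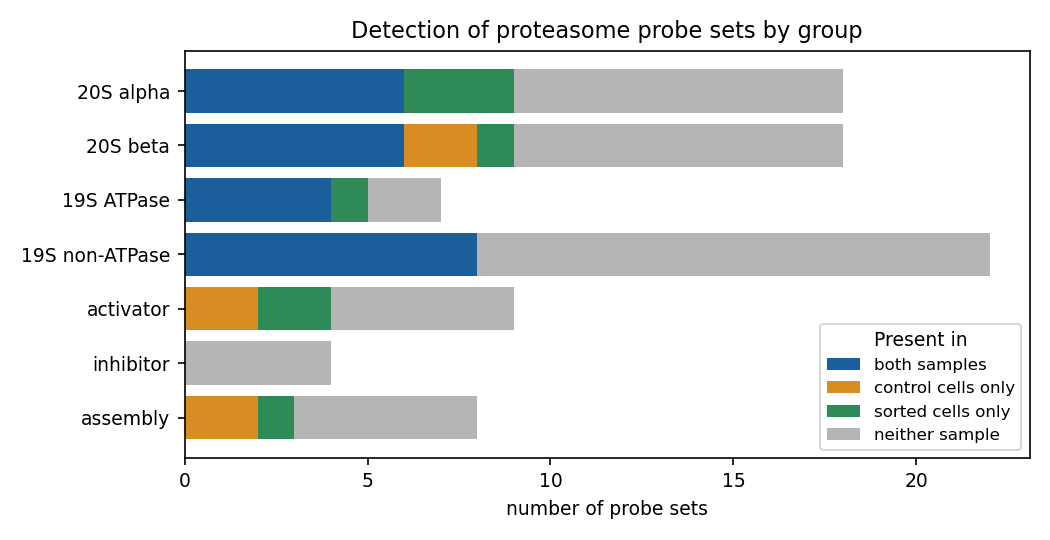
Number of probe sets (horizontal axis) of each group of proteasome genes, coloured by the samples in which they were called Present. The groups of the 20S core and the 19S particle hold all 24 probe sets Present in both samples, and the 4 probe sets of the inhibitor PSMF1 are Present in neither.

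The median log2 ratio of these 24 was 0.34, with a range from -0.55 to 1.04. The median of all 2556 was 0.11, and the SD of the log2 ratio was 0.40 in the proteasome genes and 0.67 in all. The 2 sets were not matched for signal. The ratio was positive in 18 of 24 (75%), and in 57.5% of all. It lay within 0.5 of 0 in 15 of 24 (62.5%), and in 59.5% of all. After the median of all was subtracted, that of the proteasome genes was 0.23. Over all 102 probe sets, detected or not, the median was 0.08, beside -0.03 over the whole array. The log2 ratios of the spikes had an SD of 0.33.

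**Figure D2:**
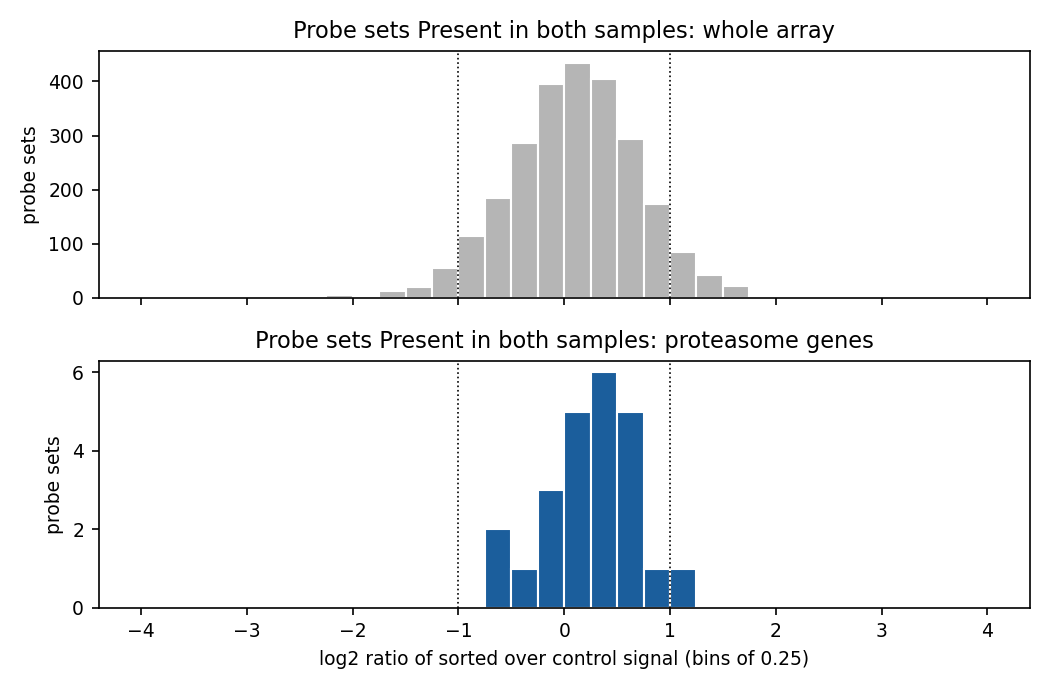
Number of probe sets Present in both samples (vertical axis) by log2 ratio of sorted over control signal (horizontal axis, bins of 0.25), for the 2556 of the array (upper panel) and for the 24 of proteasome genes (lower panel, another vertical scale). Beyond the bins lay 4 of the 2556, which are not drawn. Dotted lines mark a 2-fold difference, and 1 of the 24 lies outside them.

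The alpha subunits form the outer rings of the core. Of their 18 probe sets, for 8 genes, 6 were Present in both samples and 3 in sorted cells only, and 0 passed the 2-fold rule. PSMA7, an alpha subunit, was read by 201114_x_at with a signal of 27575 in control and 36680 in sorted cells, a log2 ratio of 0.41. PSMA6 was read by 208805_at, which the annotation gives to PRORP as well, with 22757 in control and 29160 in sorted cells (0.36). PSMA5 had 15047 and 17525 at 201274_at (0.22). All 3 were Present in both samples within 2-fold. PSMA3 had 4084 in control and 6336 in sorted cells at 201532_at (0.63). PSMA1 had 5727 and 8952 at 210759_s_at (0.64). At 201317_s_at PSMA2 had 6093 in control and 5986 in sorted cells, a log2 ratio of -0.03. Other probe sets of PSMA2 were Present in sorted cells only. Its probe set 201316_at went from 596 (Absent) to 1109 (Present), and 53202_at, shared with C7orf25, from 144 (Absent) to 256 (Present). PSMA4 had 1301 (Absent) in control and 1640 (Present) in sorted cells at 203396_at (0.33). The other 9 alpha probe sets were Present in neither sample. PSMA1 had 1307 and 1039 at 201676_x_at (-0.33), and 1612 and 673 at 211746_x_at (-1.26). PSMA2 had 789 and 831 at 221573_at (0.07). PSMA3 had 95.7 and 497 at 232648_at (2.38), and 711 and 637 at 237300_at (-0.16). The Absent probe sets of PSMA3 thus had ratios on either side of that of the Present one, 0.63. PSMA6 had 426 and 139 at 202713_s_at (-1.62). PSMA7 had 759 and 2626 at 216088_s_at (1.79). PSMA5 had 536 and 29.1 at 230300_at (-4.20). The last alpha subunit, PSMA8, is known from the testis and had 472 and 646 (0.45).

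The beta subunits form the inner rings. Their 18 probe sets, for 10 genes, held 6 Present in both samples, 2 in control cells only and 1 in sorted cells only. None of these 9 differed by 2-fold. PSMB4, a beta subunit without catalytic activity, had 38812 in control and 40921 in sorted cells at 202243_s_at (0.08), and 16719 and 21359 at 202244_at (0.35). PSMB3, also not catalytic, had 19656 and 19447 at 201400_at (-0.02). PSMB2 had 9088 and 10616 at 200039_s_at (0.22). These log2 ratios were all within 0.5 of 0. PSMB1 was read in opposite directions, with 3153 in control and 4718 in sorted cells at 200876_s_at (0.58) and 2011 and 1414 at 214288_s_at (-0.51), all Present. Further probe sets of these genes were Present in neither sample. They gave log2 ratios of 0.40 for PSMB1 at 214289_at (54.0 and 71.0) and 1.71 for PSMB4 at 228204_at (225 and 736). For PSMB2 they gave 0.96 at 201404_x_at (542 and 1052), -1.27 at 231323_at (588 and 243) and -0.75 at 238425_at (371 and 221). The probe sets of PSMB2 thus had ratios of both signs, of which that of the Present one was the closest to 0.

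The catalytic beta subunits of the standard proteasome are PSMB5, with chymotrypsin-like activity, PSMB6, with caspase-like activity, and PSMB7, with trypsin-like activity. PSMB5 had 2411 (Absent) in control and 2788 (Present) in sorted cells (0.21). PSMB6 had 3095 and 3086, both Absent. PSMB7 had 2539 (Present) and 1813 (Absent) at 200786_at (-0.49). Its 244801_at was Absent in both, with 112 and 78.1 (-0.52). None of the 3 catalytic genes was Present in both samples, and their log2 ratios are given without a statement of change. In cells exposed to interferon they are replaced by PSMB8, PSMB9 and PSMB10, which make the immunoproteasome. PSMB9 had 4031 (Present) in control and 2622 (Absent) in sorted cells (-0.62). PSMB10 had 1349 (Marginal) and 1270 (Absent), with a log2 ratio of -0.09. PSMB8 had 299 and 138, both Absent. PSMB9 was thus the immunoproteasome subunit called Present, and on 1 array.

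The ATPases of the 19S particle unfold substrates and push them into the core. The naming rule found 7 of their probe sets, for 5 genes and none for PSMC5. Of the 7, 4 were Present in both samples and 1 in sorted cells only. PSMC1 had 9657 in control and 15171 in sorted cells at 204219_s_at (0.65). PSMC3 had 1980 and 3721 at 201267_s_at (0.91). PSMC2 had 712 and 1066 at 201068_s_at (0.58). All 3 log2 ratios were positive and under 1. PSMC2 had other probe sets that were Absent in both samples, with 102 and 41.8 at 201067_at (-1.28) and 161 and 191 at 238020_at (0.25). PSMC4 had the opposite sign, with 26981 in control and 18435 in sorted cells at 201252_at, a log2 ratio of -0.55. PSMC6 had 222 (Absent, detection p-value 0.0806) in control and 629 (Present, 0.00195) in sorted cells at 201699_at. Its log2 ratio was 1.51, and the signal in sorted cells was 2.84-fold higher against an Absent one. For limits, here and below, the Absent array was taken at its own signal or at the lowest signal called Present on it (148 in control cells), whichever was higher. Such a limit depends on that choice and does not bound the true difference. The median log2 ratio of the 4 ATPase probe sets Present in both samples was 0.62.

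The other subunits of the 19S particle bind ubiquitin chains, remove them or hold the particle together. Of 22 probe sets for 12 genes, 8 were Present in both samples, with a median log2 ratio of 0.21, and the other 14 in neither. PSMD1, a scaffold subunit, had 40682 in control and 51053 in sorted cells at 201198_s_at (0.33). PSMD4, a receptor for ubiquitin chains, had 37534 and 50439 at 210460_s_at (0.43). Its other probe sets had 29091 and 28919 at 211609_x_at (-0.01), and 14096 and 11490 at 200882_s_at (-0.29). The probe sets of PSMD4 thus spanned 0.72 on the log2 scale. PSMD14, the deubiquitinase of the particle, had 2490 in control and 3182 in sorted cells (0.35). PSMD11, a lid subunit, had 14242 and 15187 (0.09). PSMD12, also of the lid, had 2399 and 2415 at 202352_s_at (0.01). PSMD6, a further lid subunit, had 3460 in control and 7138 in sorted cells at 202753_at, Present in both. Its log2 ratio of 1.04 was the only one of the 24 at 2-fold or more, and it was 0.94 with centring and with quantile normalization, under the limit. A further probe set of PSMD6, 1555884_at, was Absent in both samples at 77.8 and 12.4. The Absent probe sets of other detected genes had 252 and 410 for PSMD1 at 201199_s_at (0.70), 1041 and 218 for PSMD4 at 210459_at (-2.26) and 785 and 592 for PSMD11 at 208776_at (-0.41). PSMD12 had 19.2 and 231 at 202353_s_at (3.59), beside a log2 ratio of 0.01 where it was Present. Among the genes Present in neither sample, PSMD2, a scaffold subunit, had 853 and 1130 (0.40), PSMD3 had 1650 and 971 (-0.76) and PSMD8 had 158 and 883 (2.48). PSMD5, PSMD9 and PSMD10, chaperones that help to build the 19S particle, also had no Present probe set, with log2 ratios from -2.79 to 2.60 at their 6 probe sets.

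**Figure D3:**
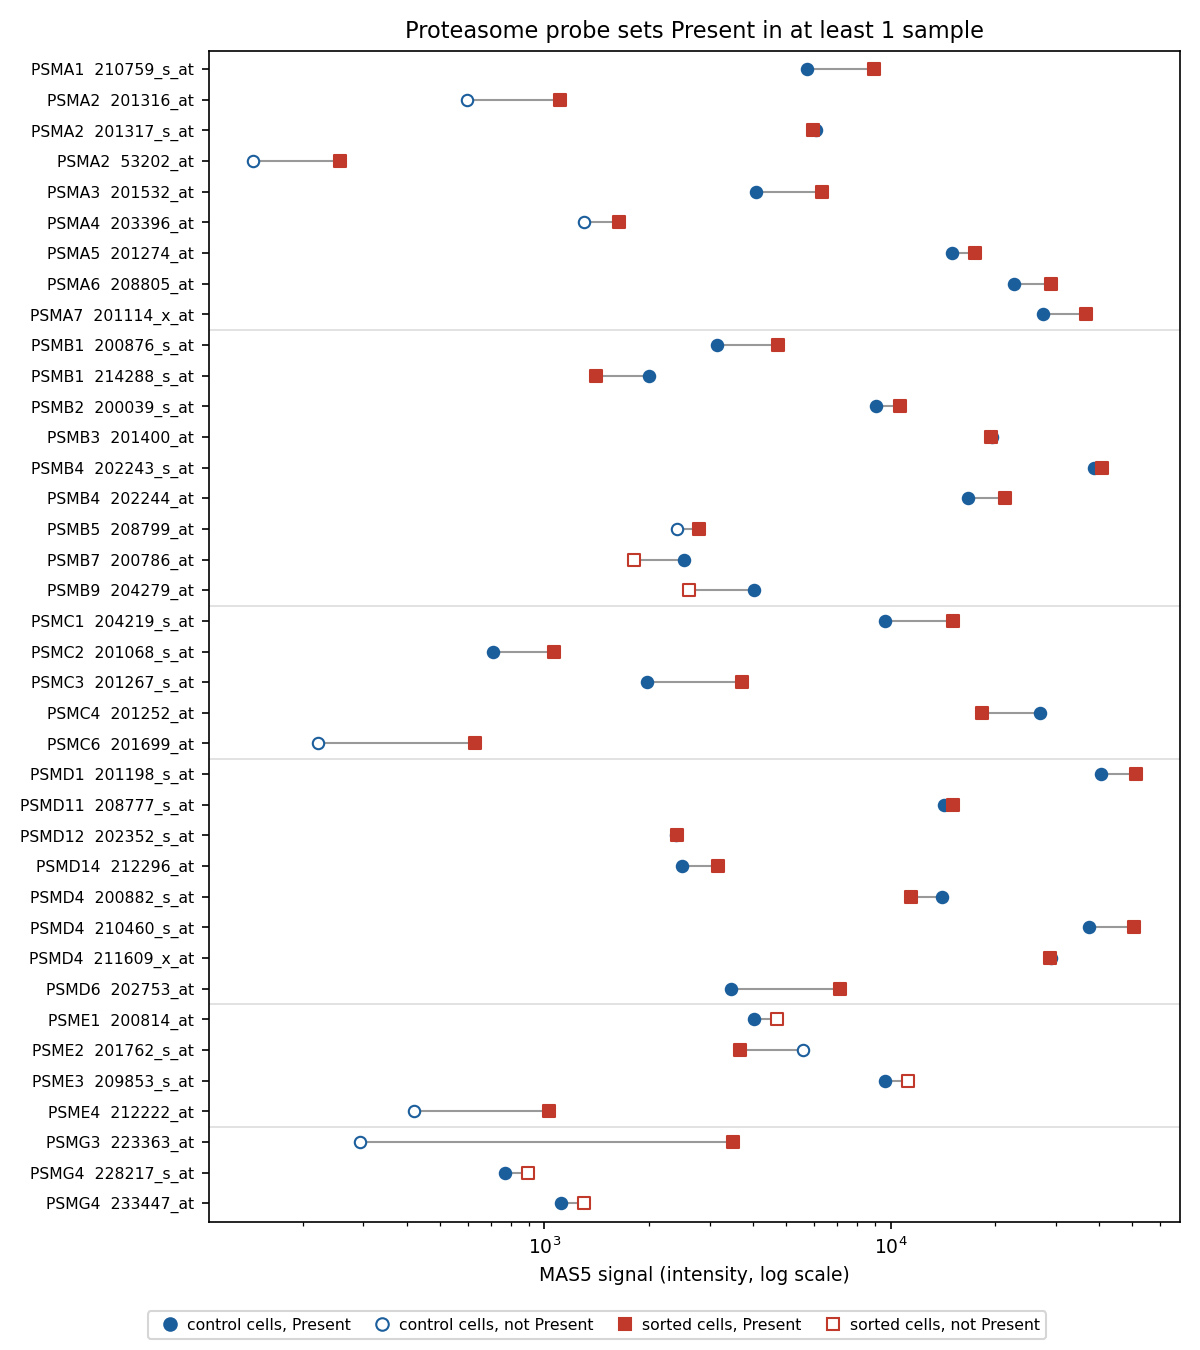
MAS5 signal (horizontal axis, log scale) of each of the 38 proteasome probe sets Present in at least 1 sample, with control cells as circles and sorted cells as squares, filled where the call was Present. Grey lines separate, from the top, 20S alpha, 20S beta, 19S ATPase, 19S non-ATPase, activator and assembly genes. PSMG3 has the widest gap, from 294 to 3500, and signals of different probe sets are not comparable with each other.

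Activators open the core in place of the 19S particle. All 4 activator genes had a probe set Present in 1 sample, and 0 of their 9 probe sets were Present in both. PSME1, a subunit of the activator PA28 that interferon induces, had 4039 (Present) in control and 4690 (Absent) in sorted cells (0.22). Its partner PSME2, read by a probe set shared with MIR7703, had 5588 (Absent) and 3675 (Present), a log2 ratio of -0.60. PSME3, the nuclear form, had 9665 (Present) and 11233 (Absent) at 209853_s_at (0.22). In these 3 genes, at these probe sets, the call changed against the signal, with the higher signal called Absent. PSME4, the large activator PA200, had 420 (Absent, detection p-value 0.195) in control and 1030 (Present, 0.0142) in sorted cells at 212222_at. With a log2 ratio of 1.29, sorted cells had 2.45-fold more signal, against an Absent one. Its probe sets 212219_at (43.8 and 21.9) and 212220_at (325 and 162) were Absent in both samples, with the lower signal in sorted cells each time. The value of PSME4 thus rests on 1 of its 3 probe sets. PSME3 had further probe sets that were Absent in both samples, with 10007 and 10996 at 200987_x_at (0.14), 95.0 and 256 at 200988_s_at (1.43), and 948 and 869 at 209852_x_at (-0.13). PSMF1, an inhibitor of the proteasome in vitro, was Present in neither sample at any of its 4 probe sets. Its log2 ratios ran from -2.98 at 235993_at (952 and 120) to 2.78 at 201053_s_at (29.0 and 199), with -1.62 at 236012_at (211 and 68.8) and 0.62 at 201052_s_at (1948 and 2985).

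Assembly factors help the alpha subunits form a ring. PSMG3 had 294 (Absent, detection p-value 0.366) in control and 3500 (Present, 0.0132) in sorted cells at 223363_at, its single probe set. The signal was 11.9-fold higher against an Absent one, with a log2 ratio of 3.57. PSMG4, its partner in the same step, had 770 (Present) in control and 894 (Absent) in sorted cells at 228217_s_at (0.22), and 1116 (Present) and 1302 (Absent) at 233447_at (0.22). In both, the higher signal was the one called Absent. Its other 3 probe sets were Absent in both samples, with 239 and 62.5 at 233443_at (-1.93), 54.6 and 23.8 at 242055_at (-1.20), and 159 and 8.45 at 242623_x_at (-4.23). PSMG1 had 40.1 and 353 (3.14) and PSMG2 had 410 and 199 (-1.04), Absent in both samples. PSMG3 was thus the assembly factor called Present in sorted cells, and the ratios of PSMG1 and PSMG2 rest on Absent signals.

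**Figure D4:**
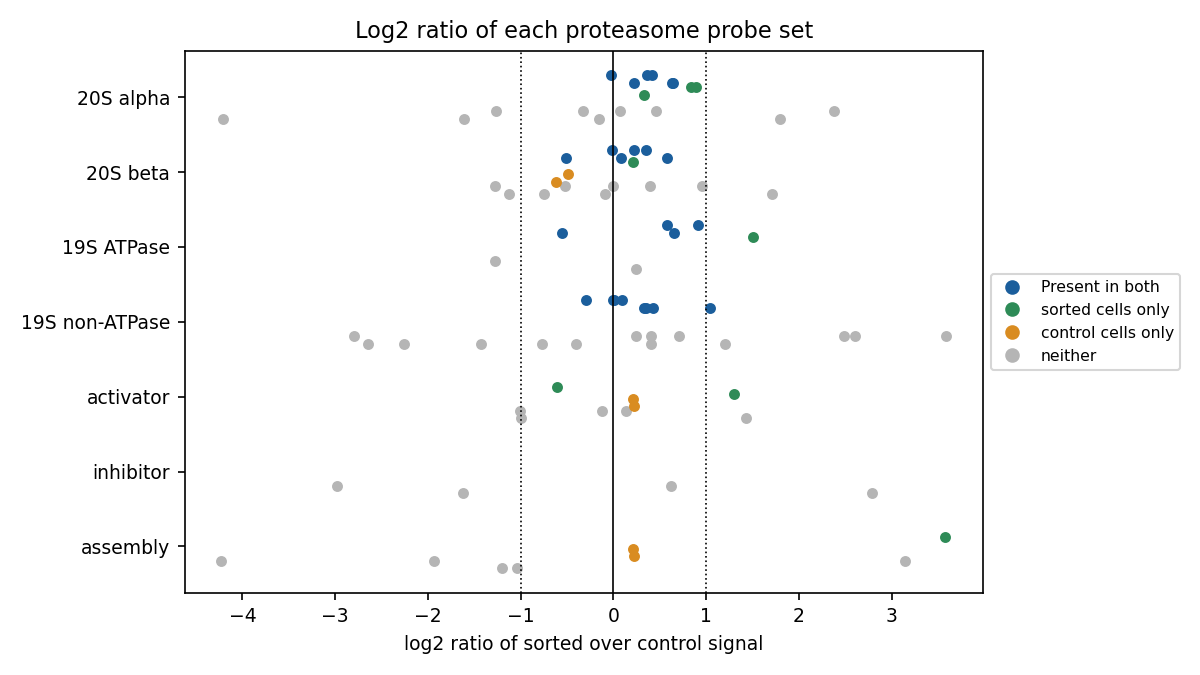
Log2 ratio of sorted over control signal (horizontal axis) of the 86 probe sets of proteasome genes by group, coloured by the samples in which they were Present and spread vertically for legibility. Dotted lines mark a 2-fold difference. The probe sets Present in neither sample range from -4.23 to 3.59, those Present in both from -0.55 to 1.04.

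The detection calls decided much of what could be compared. Of the 38 proteasome probe sets Present in at least 1 sample, 24 were Present in both, beside 2556 of 6821 on the whole array. In 14 probe sets the call was Present in 1 sample only, 6 in control and 8 in sorted cells. Of these, 11 differed by less than 2-fold, and in 10 the other array had a detection p-value under 0.15. Neither share was computed over the whole array, so no trait of proteasome genes can be read from them. The 48 probe sets of proteasome genes Present in neither sample had a median absolute log2 ratio of 1.16, and 56.2% of them differed by 2-fold or more. Over the array these values were 1.04 and 51.2%. Of the 15 genes with several probe sets and at least 1 of them Present in both samples, 15 also had a probe set Present in neither. This was not counted for the other genes of the array. Probe sets ending in _s_at or _x_at, which can bind several transcripts or genes, made up 16 of the 24 Present in both. Of 36 such probe sets of proteasome genes 44.4% were Present in both, and of the other 50 it was 16%. On the whole array these shares were 8.41% and 3.20%, so the order was the same.

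Probe sets of the same gene can be set beside each other. PSMB1, PSMB4 and PSMD4 had 2 or more probe sets Present in both samples, and their log2 ratios spanned 1.09, 0.28 and 0.72. Over 243 genes of the array with such probe sets the median span was 0.56, and the 90th percentile was 1.33. PSMB1 and PSMD4 thus lay above the median of the array, and PSMB4 below it.

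The 16 remaining probe sets chosen by name read no proteasome subunit. They belong to PSMC3IP, a partner of PSMC3 known from meiotic recombination, to PSME3IP1, which binds PSME3, and to the transcripts PSMA3-AS1, PSMB8-AS1, PSMD6-AS2, PSMG3-AS1, PSMD7-DT and PSMD14-DT. All 16 were Present in neither sample, with log2 ratios from -2.05 (PSMA3-AS1 at 241774_at) to 3.20 (PSMD14-DT).

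Promoters of the rat genes are shown for the genes past 2-fold in sorted cells that had an entry, PSMG3, PSMC6 and PSME4, and for PSMD1 and PSMD4, which were Present in both samples and within 2-fold. They run from 250 bases before to 50 after the start of the gene, from RefSeq on the rat assembly GRCr8, written 5′ to 3′ on the strand of the gene. Capitals mark matches on either strand to TGACNNNGC or TGAGNNNGC, forms of the antioxidant response element bound by NFE2L1, the factor known to raise proteasome genes, to CCAAT, and to CCGGAAG, a core bound by ETS factors.
rat Psmg3, GRCr8 chr12:19923038-19923337, plus strand: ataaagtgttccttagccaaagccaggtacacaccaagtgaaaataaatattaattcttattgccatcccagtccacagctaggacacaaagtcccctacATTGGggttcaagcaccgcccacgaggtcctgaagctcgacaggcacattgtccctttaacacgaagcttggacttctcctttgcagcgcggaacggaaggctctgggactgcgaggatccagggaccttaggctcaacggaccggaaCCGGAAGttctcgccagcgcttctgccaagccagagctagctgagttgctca
rat Psmc6, GRCr8 chr15:21022064-21022363, plus strand: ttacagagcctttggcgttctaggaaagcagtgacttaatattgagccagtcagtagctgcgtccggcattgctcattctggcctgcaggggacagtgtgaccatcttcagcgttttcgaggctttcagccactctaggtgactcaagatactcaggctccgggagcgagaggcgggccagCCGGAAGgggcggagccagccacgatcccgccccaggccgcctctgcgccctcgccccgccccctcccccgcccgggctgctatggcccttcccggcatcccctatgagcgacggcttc
rat Psme4, GRCr8 chr14:108706393-108706692, plus strand: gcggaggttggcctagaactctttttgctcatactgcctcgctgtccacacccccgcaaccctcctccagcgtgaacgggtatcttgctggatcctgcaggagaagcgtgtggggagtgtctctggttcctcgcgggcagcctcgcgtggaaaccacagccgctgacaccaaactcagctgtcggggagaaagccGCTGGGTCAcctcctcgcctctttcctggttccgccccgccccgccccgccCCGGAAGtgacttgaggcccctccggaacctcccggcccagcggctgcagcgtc
rat Psmd1, GRCr8 chr9:94157721-94158020, plus strand: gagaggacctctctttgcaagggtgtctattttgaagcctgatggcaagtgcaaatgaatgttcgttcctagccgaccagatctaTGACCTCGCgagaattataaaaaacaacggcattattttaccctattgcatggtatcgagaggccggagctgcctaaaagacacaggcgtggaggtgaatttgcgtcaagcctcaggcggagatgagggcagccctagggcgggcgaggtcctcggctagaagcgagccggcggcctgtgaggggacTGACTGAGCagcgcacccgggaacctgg
rat Psmd4, GRCr8 chr2:185297152-185297451, minus strand: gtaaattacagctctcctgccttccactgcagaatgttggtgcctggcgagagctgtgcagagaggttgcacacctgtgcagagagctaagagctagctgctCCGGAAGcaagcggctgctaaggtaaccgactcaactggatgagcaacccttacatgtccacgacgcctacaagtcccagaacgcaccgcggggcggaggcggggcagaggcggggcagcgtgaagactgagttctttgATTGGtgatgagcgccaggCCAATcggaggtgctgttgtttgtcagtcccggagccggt

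Of the 44 genes, 40 had a promoter in the table, and PSMA7, PSMD6, PSMD12 and PSMD14 had none. TGACNNNGC was found in 8 of 40 promoters (20%), and in 12.1% of all 33469 promoters. TGAGNNNGC was found in 8 (20%, against 17.2%), and CCAAT in 19 (47.5%, against 37.5%). CCGGAAG was found in 13 (32.5%), against 8.75% of all promoters and 10.7% of those of protein-coding genes. The 13 include PSMG3, PSMC6 and PSME4. They also include PSMD4, PSMD11, PSMC1, PSMC2, PSMA6 and PSMB4, each with a probe set Present in both samples within 2-fold. A match is a description of these letters, and overlaps between the motifs were counted for each.

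Genes around the proteasome were read from lists, at probe sets naming 1 gene. Of 6 genes of ubiquitin and its activation, 3 were Present, all in both samples. UBB, which encodes a chain of ubiquitin units, had 7103 in control and 15447 in sorted cells (1.12) and was higher by the 2-fold rule. The activating enzymes UBA1, with 9926 and 6245 (-0.67), and UBA6, with 1657 and 1061 (-0.64), were within 2-fold. Of 17 genes of accessory proteins, ubiquitin shuttles and deubiquitinases bound to the proteasome, 9 were Present in at least 1 sample. Of their 55 probe sets, 1 was higher and 1 lower, against 1.61% and 1.77% of all probe sets. These shares of all probe sets, here and in the lists below, were not matched for detection. ZFAND5, a zinc finger protein that activates the proteasome, was higher at 210275_s_at, with 41255 and 94099 (1.19), and within 2-fold at 217741_s_at (0.74). TXNL1, a thioredoxin bound to the 19S particle, was lower at 235561_at, from 822 (Present) to 389 (Absent, -1.08), while 201588_at had 0.53. ECPAS, an adaptor of the proteasome, had 624 (Present) and 1323 (Absent) at 212428_at (1.09), and 987 and 642 at 236368_at, Present in both (-0.62). UBQLN2, a shuttle, had 5800 (Present) and 11523 (Marginal, 0.99). Neither 212428_at nor the probe set of UBQLN2 was counted as higher, since the call in sorted cells was not Present.

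Of 13 genes of proteasome biogenesis and transcription, 5 were Present in at least 1 sample. Of their 33 probe sets, 0 were higher and 1 was lower, against 1.61% and 1.77% of all probe sets. IPO9, an import factor known to carry proteasomes into the nucleus, had 1237 (Present) in control and 532 (Absent) in sorted cells (-1.22). AKIRIN2, which acts in the same import, had 2266 and 1547 at 213810_s_at (-0.55), with -0.33 and -0.17 at its other Present probe sets. NFE2L1 had 5053 and 3571, Present in both (-0.50). FBXO7, a binding partner of PSMF1, had 1936 (Absent) and 2828 (Present, 0.55). POMP, the maturation factor of the core, was Present in neither.

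Of 13 genes of antigen processing, which takes up peptides made by the proteasome, 8 were Present in at least 1 sample. Of their 38 probe sets, 1 was higher and 2 were lower, against 1.61% and 1.77% of all probe sets. Both lower ones read CALR, a chaperone of the peptide-loading complex, with 407 (Present) and 19.5 (Absent) at 214315_x_at and 609 (Present) and 42.3 (Absent) at 200935_at. Taken at the lowest Present signal of sorted cells (159), their log2 ratios were -1.35 and -1.93. CANX, a chaperone of the same pathway, had 942 (Absent) and 2010 (Present, 1.09). ERAP1, a trimming peptidase, had 821 (Marginal) and 1161 (Present, 0.50). TAPBP, of the loading complex, had 2521 and 3327, both Present (0.40). The peptide transporters TAP1 and TAP2 were Present in neither.

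Of 15 genes of p97, the ATPase encoded by VCP that extracts ubiquitinated proteins, 7 were Present in at least 1 sample. Of their 47 probe sets, 3 were higher and 2 lower, against 1.61% and 1.77% of all probe sets. UBXN1, a cofactor of p97, had 2027 and 5309, both Present (1.39). UBXN4, another cofactor, named after its values were seen, had 3447 and 8882, both Present (1.37). ATXN3, a deubiquitinase, had 71.8 (Absent) and 543 (Present), a log2 ratio of 1.87 against the lowest Present signal. UBXN7 had 685 (Present) and 77.8 (Absent), a limit of -2.11, and NSFL1C had 547 (Present) and 202 (Absent) at 232519_at, a log2 ratio of -1.44, but 0.25 at 217830_s_at. VCP itself was Present in neither sample.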

How the data were processed

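Each condition was measured on 1 array. The deposited files hold MAS5 intensities, made by the authors on a linear scale, each with its call and detection p-value. Affymetrix Expression Console is the tool in the submitters' notes, release not given in the sources used here. Intensities in the deposited series table were the same to within 0.0005%. No scanner values were used, so background correction, summarisation and scaling are those of the authors.

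The 62 control probe sets were left out. Genes were named through the annotation of the array, matched to rat promoters by symbol. The log2 ratio of both signals, sorted over control, was taken with no added normalization. Python 3.11.15 was used with pandas 2.3.3, numpy 2.4.6 and matplotlib 3.10.9. The number of arrays limits the precision. The calling rule was tested on simulated data, with differences planted only in probe sets Present in both samples. Probe sets Present in only 1 sample were not covered by it. The genes and lists were chosen with earlier results of these data known. Every proteasome gene was accounted for, those Present in at least 1 sample in full, and up to 4 genes of each other list with the largest absolute log2 ratio among Present probe sets were named. The motifs were picked with the values already known. Alternatives were quantile normalization, centring, the value table, a floor on dim signals, other detection and fold rules, and other choices of probe sets.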

Additional observations from a re-analysis of the deposited data

How the results depend on the processing

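No paired analysis was possible because each condition has 1 array, and for the same reason no array could be left out. The number of probe sets higher in sorted cells was 1 with a 4-fold rule (PSMG3), 1 with a Present call required in both samples (PSMD6) and 16 with no detection call required. It was 3 with quantile normalization and with centring, where PSMD6 fell under 2-fold. The number lower was 0, and 20 with no detection call required. A limit of 0.01 on the detection p-value left 16 Present in control cells, 14 in sorted cells and 12 in both. That limit in at least 1 of the samples, chosen after seeing the data, was met by 18. Gene-specific probe sets, without those ending in _s_at or _x_at, left 12, 15 and 8. The median log2 ratio of the probe sets Present in both samples lay between 0.22 and 0.36 under the alternatives. That over all 102 probe sets lay between -0.03 and 0.22 and changed sign with centring, with the floor, with gene-specific probe sets and with the median of each gene's probe sets. A shift of a log2 ratio was counted when it exceeded 0.33, the SD of the spike probe sets. Of 38 single log2 ratios, 1 shifted with the floor, 53202_at of PSMA2 (0.10), and 0 with quantile normalization, centring or the value table.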
